A study of Mus musculus with 8 samples.

Results

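Wild-type neural stem and progenitor cells of the embryonic mouse hippocampus were compared before and 2 days after their growth factors were withdrawn. The comparison took every cell that the deposited cell table assigns to the wild-type library of day 2 (4098 cells) and to the wild-type library of day 0 (4857 cells). These are 8955 of the 30408 cells of the series, which holds 8 droplet single-cell RNA-seq libraries, 1 for each of 2 genotypes on days 0, 2, 4 and 8. Per the labels, dentate gyri were dissected at embryonic day 18 from litters of C57BL/6J females mated to Kmt2d+/βgeo males, while the study's methods name an embryonic day 1 lower than that. The wild-type libraries have the strain label C57BL/6J and the allele label wildtype. At day 0 the cells were grown in Neurobasal medium with the mitogens EGF and FGF2, and at day 2 they had been without both. The Kmt2d+/βgeo libraries of days 0 and 2 carry the allele Mll2Gt(RRt024)Byg and served only as another pair of libraries with the same treatment (4331 and 4900 cells). They share no library with the wild-type pair.

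Each day of each genotype is 1 library of cultured cells on Matrigel. The study's methods speak of replicate cultures, and the sources used here do not say how many cultures or embryos went into a library. The day, the culture and the library therefore cannot be told apart. No test between the days was possible within wild type, and cells were not used as replicates. Every interval below is a 95% interval for counting error only. Median total UMIs (unique molecular identifiers, each marking 1 captured RNA molecule) were 20434 per cell at day 0 and 16692 at day 2. Over the matrix genes the medians were 9402 and 7299, so fewer UMIs were recovered per day 2 cell, and the mean per cell was lower by 0.48 on the log2 scale. RNA content and depth of the library cannot be told apart in this. The 2 libraries shared 6 cell barcodes, against 0 to 10 for the 28 pairs of libraries in the series.

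EGF and FGF2 keep neural progenitors dividing in culture through receptor tyrosine kinases and the ERK cascade. When they are taken away, progenitors leave the cell cycle and turn toward neurons, astrocytes or oligodendrocytes. Astrocytes of the hippocampus take up glutamate, are coupled by gap junctions and secrete lipid particles built on apolipoprotein E, and many of their genes are already active in radial glia, the stem cells of the embryonic brain.

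Expression is given as the mean normalised count: each cell is scaled to the same total of 8707 over the 9140 matrix genes, and the mean is taken over all cells of a library. A gene was compared when its mean was at least 0.1 in either library, which 7451 genes met. It is said to have risen or fallen when its log2 ratio of means, day 2 over day 0, was at least 1 or at most -1. By this rule 602 genes rose (8.08% of those compared) and 414 fell (5.56%), and 6435 did neither. These 2 shares are the background for each gene list below. The median log2 ratio over all genes compared was 0.01, and the median absolute ratio was 0.38. In all, 120 genes rose by at least 2 log2 units and 77 fell by as much. The pooled counting intervals of all 602 and 414 genes left out a ratio of 0. The genes were picked from these same counts for ratios past 1, so this was nearly fixed beforehand. It gives no measure of variation between cultures or libraries. The genes that rose made up 3.80% of all normalised counts at day 0 and 13.8% at day 2, and those that fell made up 7.35% and 2.82%. Scaling sets the balance of the 2 counts. With mean UMIs per cell and no scaling for depth, 292 genes were higher and 1397 lower, so higher genes were 17.3% of calls, against 59.3% with scaling. All ratios below are relative to the scaled total.

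**Figure D1:**
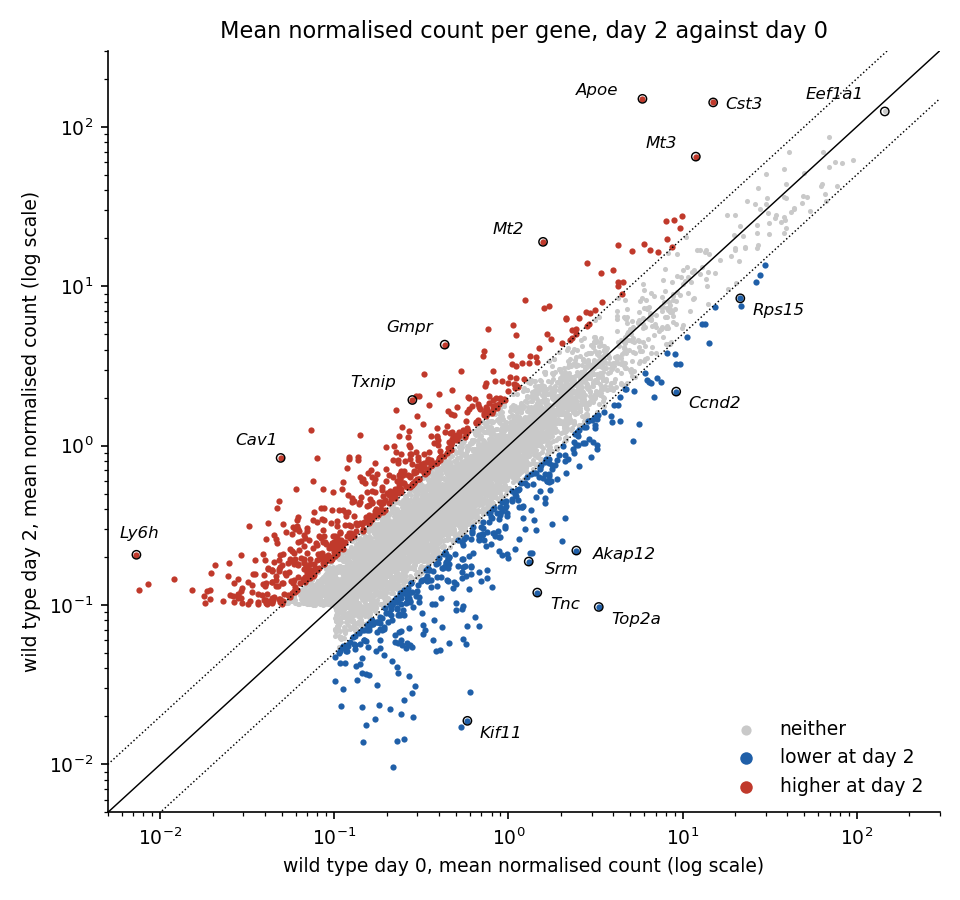
Mean normalised count of each of the 7451 genes compared, wild type day 0 (x axis) against wild type day 2 (y axis), both on log scales. Dotted lines mark a log2 ratio of 1 and -1 around the line of equality. Apoe, Cst3, Mt3 and Mt2 stand apart from the rest above the line, and Top2a, Akap12 and Tnc below it.

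The label of progenitors was read against genes of that state. Vim, which encodes the intermediate filament of radial glia, had a mean of 30.3 at day 0 and 50.5 at day 2 and was detected in 99.9% and 100% of cells thinned to 3000 UMIs. Fabp7, a fatty acid binding protein of radial glia, had means of 27.0 and 41.2, and Sox9, a transcription factor of neural stem cells and astrocytes, had 2.72 and 2.93. Sox2 and Nes were not analysed here, since the matrix has no row of those names. Neither Vim, Fabp7 nor Sox9 moved by 1 log2 unit. Of the markers of other cells, 0 of 24 endothelial, mural and fibroblast genes and 1 of 21 microglia and blood genes had a matrix row. The 2 choroid plexus and ependymal genes with a row summed to 0.0007% of normalised counts at day 0 and 0.0014% at day 2. Of neuron and oligodendrocyte lineage markers, 14 of 43 and 10 of 29 had a matrix row. Libraries could thus be read in part for neural and glial states, and hardly for other lineages.

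The cell-cycle genes held the lowest ratios among the genes compared. Of 33 genes compared for DNA replication and S phase, 21 fell and 0 rose, with a median log2 ratio of -1.66. Of 19 genes for mitosis and chromosome segregation, 16 fell and 0 rose, and the median was -2.93. Top2a, the topoisomerase that untangles sister chromatids (chromosome 11, 98992943 to 99024189 on GRCm38), had a mean of 3.30 at day 0 and 0.0973 at day 2, a log2 ratio of -5.08. Its pooled counts of 27779 and 555 UMIs gave -4.92 (-5.05 to -4.80). After thinning, 34.0% of day 0 cells (32.7 to 35.3%) and 1.29% of day 2 cells (0.97 to 1.69%) held a Top2a UMI. Without thinning these shares were 55.1% and 3.17%. No cell type that ought to lack the gene had been defined, so no background level from free RNA can be set beside these shares or those below.

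The other mitotic genes with low ratios included ones that act in the spindle, the kinetochore, the cleavage furrow and condensin. Kif11, the motor that pushes spindle poles apart, had means of 0.581 and 0.0188 (log2 ratio -4.95). Knl1, a scaffold of the kinetochore, had 0.532 and 0.0173 (-4.94). Nusap1, which binds spindle microtubules, had 0.604 and 0.0284 (-4.41). Ect2, which sets the cleavage furrow, had 0.228 and 0.0139 (-4.03). Smc2 and Smc4, the core of condensin, fell from 1.79 to 0.321 and from 1.74 to 0.523, ratios of -2.48 and -1.73. Of the list, 3 members did not fall: Arl6ip1 (-0.56), Bub3 (-0.51) and Ckap5 (0.29). Ckap5 is a microtubule polymerase that cells also use outside mitosis.

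Among the replication genes, Dtl, which targets proteins for destruction during S phase, had means of 0.217 and 0.00969 (-4.49). Hells, a chromatin remodeller needed for DNA methylation, had 0.283 and 0.0198 (-3.83). Atad2 and Chaf1a, both tied to newly replicated chromatin, had ratios of -3.32 and -3.31. Mcm6, a subunit of the replicative helicase, fell from 0.700 to 0.141 (-2.31), and its share of thinned cells went from 18.0% to 5.27%. Cenps and Cenpk, centromere proteins outside these lists, were also among the 15 lowest ratios of the genes compared, at -3.42 and -3.29. The 12 replication genes that did not pass had ratios from -0.98 (Rfc3) to -0.19 (Gins4), so each of the 33 members was below 0.

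The day 0 library was spread widely for these genes. The summed normalised count of the 56 matrix genes of both lists had a median of 26.8 per cell at day 0, with 10th and 90th percentiles of 13.7 and 113. At day 2 the median was 17.0 and the percentiles were 10.7 and 24.5. Thus 94.5% of day 2 cells lay below the day 0 median, and 225 cells lay at or above it. When day 0 was restricted to the 2428 cells below its own median, the median ratio was -0.25 for the replication list and -0.43 for the mitotic list. Only 10 of the 19 mitotic members kept the minimum mean there, and over those 10 the median was 0.12, opposite in sign to that over all cells. Smc2 and Smc4 then had ratios of 0.16 and 0.12, opposite in sign to those over all cells, while Top2a had -1.95 and was still called. Mcm6 had -0.68 and was not. Dtl, Kif11, Knl1, Nusap1, Ect2, Hells, Atad2, Chaf1a, Cenps and Cenpk lay under the minimum mean of 0.1 in both sets of cells and were no longer compared. This cut uses the cycle genes themselves and 444 cells lie within 10% of it, so the values describe a range of the score and no cell type.

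Promoter sequence was looked at for the replication, mitotic, cholesterol and astrocyte lists and for Mt2 and Mt3. Every member with a promoter was counted, whether or not it was called. E2F factors and the CHR and CCAAT elements are known to drive S phase and mitotic promoters, and sterol response elements (SRE) bind SREBP2. RefSeq promoters (GRCm38.p6) matched 7256 of 9131 matrix gene symbols, with 9479 promoters in all, and the 250 bases before each start were searched on both strands. An E2F motif (TTTGGCGC, TTTCCCGC or TTTCGCGC) stood in 26.7% of the 30 promoters of the replication list and in 2.91% of all promoters. The CHR motif (TTTGAA) stood in 61.9% of the 21 promoters of the mitotic list and in 10.2% of all. CCAAT stood in 66.7% of the replication promoters, 57.1% of the mitotic promoters and 34.9% of all. In the 30 promoters of the astrocyte list the shares with E2F, CHR and CCAAT were 6.67%, 13.3% and 36.7%. A metal response element (TGCGCNC) stood in 20% of the astrocyte promoters, in 1 of the 2 promoters of Mt2 and Mt3, and in 23.2% of all. The 4 promoters printed here are those of genes the results turn on, and capitals mark the motif named for each.
Mcm6, E2F motif, chr1:128359706-128359955, minus strand: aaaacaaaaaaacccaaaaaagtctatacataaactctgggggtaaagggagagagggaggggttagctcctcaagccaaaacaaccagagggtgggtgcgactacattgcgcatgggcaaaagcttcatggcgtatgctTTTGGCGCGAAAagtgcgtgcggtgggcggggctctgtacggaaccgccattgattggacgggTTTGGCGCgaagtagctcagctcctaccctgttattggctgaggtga
Kif11, CHR motif on the other strand, chr19:37376132-37376381, plus strand: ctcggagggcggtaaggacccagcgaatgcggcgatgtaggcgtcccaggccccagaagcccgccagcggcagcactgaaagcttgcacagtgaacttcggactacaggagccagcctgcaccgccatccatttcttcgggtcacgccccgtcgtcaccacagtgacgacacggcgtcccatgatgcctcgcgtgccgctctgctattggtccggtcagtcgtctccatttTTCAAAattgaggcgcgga
Top2a, CCAAT motif on either strand, chr11:99024190-99024439, minus strand: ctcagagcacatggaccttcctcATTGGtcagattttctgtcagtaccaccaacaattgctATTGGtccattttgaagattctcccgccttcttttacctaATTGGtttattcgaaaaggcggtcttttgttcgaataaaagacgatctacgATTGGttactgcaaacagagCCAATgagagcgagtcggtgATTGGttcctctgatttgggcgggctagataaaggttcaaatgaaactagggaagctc
Hmgcs1, SRE motif, chr13:119690101-119690350, plus strand: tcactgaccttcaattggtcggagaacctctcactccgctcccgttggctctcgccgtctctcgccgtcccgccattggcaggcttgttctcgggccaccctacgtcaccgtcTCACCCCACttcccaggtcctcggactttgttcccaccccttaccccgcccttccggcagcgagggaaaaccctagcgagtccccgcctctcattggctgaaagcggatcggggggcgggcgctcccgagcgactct
The Mcm6 window holds 3 E2F matches, of which 2 overlap, and the Top2a window holds 6 CCAAT matches. The SRE motif (TCACCCCAC) was found in 1 of the 18 cholesterol promoters, that of Hmgcs1, and in 0.538% of all promoters. CCAAT was in 72.2% of the cholesterol promoters. A CHR match stood in 11 of the 17 mitotic genes with a promoter, among them Bub3 and Ckap5, which did not fall. Knl1, Nusap1, Anln (-2.27), Tacc3 (-3.17) and Ube2s (-2.69) fell without one, and Arl6ip1, also without one, did not fall. A match is a run of letters in this window only and was not tested as a binding site. Whether the motifs go with the change by day 2 was not tested.

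Genes that set entry into the cycle did not move as a group. Of 23 compared cyclin D, CDK inhibitor and quiescence genes, 2 fell and 1 rose, and the median ratio was -0.03. Ccnd2, the D-type cyclin that mitogens induce (chromosome 6, 127125162 to 127152193), had a mean of 9.19 at day 0 and 2.18 at day 2, a ratio of -2.07. Against the low-cycle day 0 cells its ratio was -2.23, and the share of thinned cells with a UMI went from 84.7% to 39.4%. Cdkn1a, the p21 inhibitor of CDKs, fell too, from 2.21 to 0.819 (-1.43). Its mean was 2.53 in the wild-type day 4 library and 3.30 at day 8. Cdkn1b, the p27 inhibitor, had 0.472 and 0.750, a ratio of 0.67 that did not pass. Txnip, which binds thioredoxin and lowers glucose uptake, rose from 0.281 to 1.93 (2.78). An antisense gene, 9330179D12Rik, overlaps Ccnd2, and its own ratio was 2.37.

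Part of the growth-related genes fell. Of 46 genes for ribosome biogenesis and MYC-type growth, 21 fell, 0 rose and 45 had a ratio below 0, with a median of -0.97. Srm, which makes spermidine, had means of 1.31 and 0.187 (-2.80). Nop58 and Gnl3, nucleolar proteins, fell by 2.03 and 1.79 on the log2 scale. The list total per cell had a median of 117.7 at day 0 and 65.4 at day 2, and 79.0% of day 2 cells lay below the 10th percentile of day 0. Against low-cycle day 0 cells the list median was -0.78. Of 42 cytosolic ribosomal protein genes, 6 fell and 0 rose (median -0.52), and together they went from 19.0% to 13.2% of normalised counts. Rps15 had 21.5 and 8.39 (-1.35), and Rpl13a had 26.5 and 10.6 (-1.32). These genes have many near-identical processed copies, so how reads were shared among them makes single values uncertain. Among 27 chaperone and unfolded protein response genes, 5 fell and 3 rose. The endoplasmic reticulum chaperones Calr (7.56 and 2.51, ratio -1.59) and Hsp90b1 (9.22 and 3.23, -1.51) fell, and Cryab, a small heat shock protein of glia, rose from 1.25 to 8.17 (2.71).

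**Figure D2:**
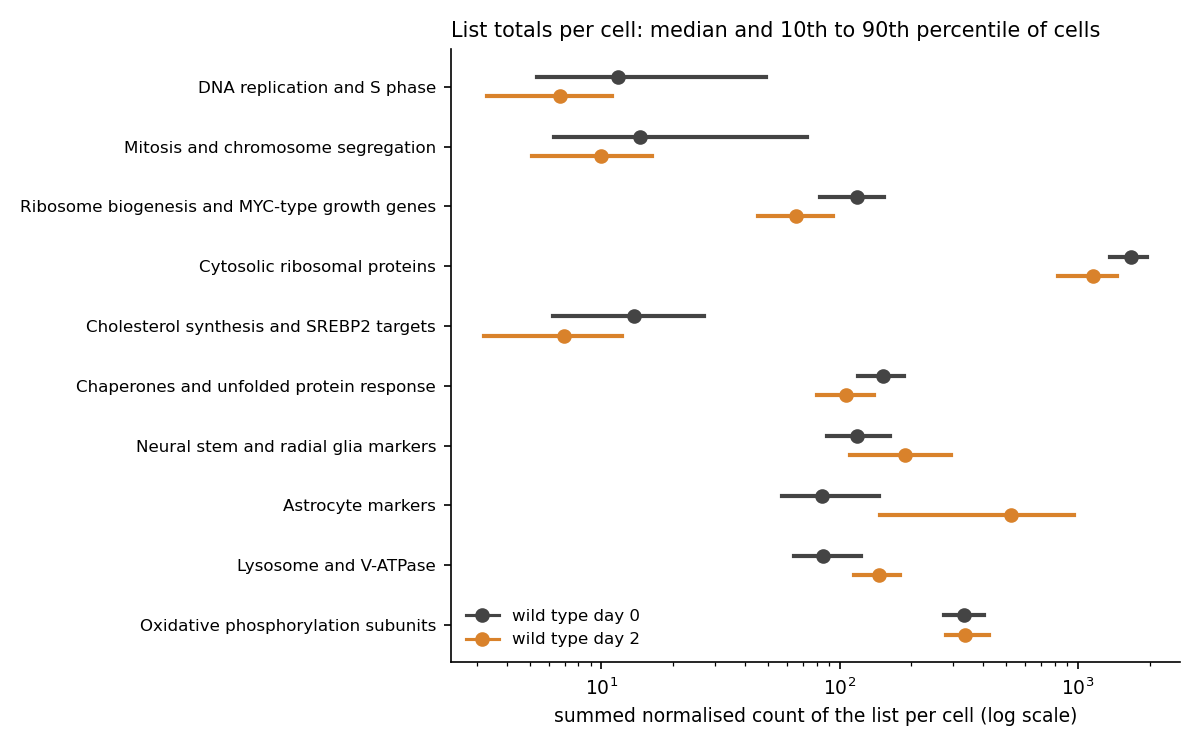
Summed normalised count of 10 gene lists per cell (x axis, log scale) in wild type day 0 and wild type day 2. Points are medians and bars run from the 10th to the 90th percentile of cells, so they show spread between cells and not an error of the mean. The ranges of the astrocyte list do not meet, whereas those of the oxidative phosphorylation list lie over each other.

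Of 19 compared chromatin genes that accompany growth, 7 fell and 0 rose (median -0.81). Ezh2, the methyltransferase of Polycomb repressive complex 2, had 1.62 and 0.472 (-1.78), and Nucks1, a nuclear DNA-binding protein, had 3.24 and 0.946 (-1.78). The histone chaperones Anp32e and Anp32b had ratios of -1.40 and -1.37. With low-cycle day 0 cells these 4 ratios lay between -0.84 and -0.78, under the threshold. Kmt2d itself, the H3K4 methyltransferase whose allele separates the 2 genotypes, had means of 0.157 and 0.197 in the wild-type libraries (0.33).

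SREBP2 is the transcription factor that turns on sterol synthesis and uptake when cells are short of sterol, and LXR targets such as Abca1 export it. Of 22 compared genes of synthesis and SREBP2 targets, 13 fell and 0 rose, with a median of -1.18 (-0.90 against low-cycle day 0 cells). Among the enzymes, Cyp51, which demethylates lanosterol, had a mean of 1.43 at day 0 and 0.296 at day 2 (-2.27), and Idi1, which interconverts the isoprene units, had 0.681 and 0.161 (-2.08). Hmgcs1 had 2.69 and 1.03 (-1.38) and Sqle 1.59 and 0.627 (-1.34). Stard4, a sterol carrier, had -2.26, and Insig1, which holds SREBP in the endoplasmic reticulum, had -1.07. Against low-cycle day 0 cells these were -1.64 and -0.89, the latter under the threshold. Members at or above 0 were Tm7sf2 (0.00), Scap (0.51) and Npc1 (0.53).

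Of 29 compared genes for lipid transport, efflux and fatty acid metabolism, 5 rose and 1 fell (median 0.61). Abca1 had a mean of 0.713 at day 0 and 3.64 at day 2, a ratio of 2.35, and its share of thinned cells went from 18.3% (17.2 to 19.4%) to 67.9% (66.4 to 69.3%). Hacd2, an enzyme of very long chain fatty acids, had 0.234 and 1.16 (2.30). Elovl6, which lengthens fatty acids, was the member that fell, from 0.953 to 0.314 (-1.60). Hmgcs1, Sqle and Cyp51 had their lowest wild-type means at day 2. Hmgcs1 stood at 2.65 in the day 4 library and 3.27 at day 8, close to or above its day 0 mean, while Cyp51 stood at 0.492 and 0.441, still below it.

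Astrocyte markers showed the highest share of risen genes of any list with more than 1 gene compared. As with every list here, the members were chosen with earlier results of these data known, so this share is no independent support. Of 26 genes compared, 23 rose and 0 fell, and the median ratio was 1.52 (1.27 against low-cycle day 0 cells). Their summed share of normalised counts was 1.12% at day 0 and 6.23% at day 2. Apoe, the main apolipoprotein of the brain (chromosome 7, 19696109 to 19699188), had a mean of 5.88 at day 0 and 150 at day 2, a ratio of 4.67. Its pooled counts gave an interval of 4.98 to 5.01. Per cell, the 10th percentile, median and 90th percentile of Apoe were 0.579, 2.53 and 12 at day 0, and 29.1, 125 and 308 at day 2. The 10th percentile of day 2 was thus above the 90th percentile of day 0. Thinned cells with an Apoe UMI were 62.7% and 99.6% of the libraries.

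Secreted and metal-binding products of astrocytes followed Apoe. Cst3, a secreted inhibitor of cysteine proteases, had means of 15 and 142 (3.25), with medians per cell of 12.1 and 105. Mt2 and Mt3, the metallothioneins that bind zinc and copper, had 1.58 and 19.0 (3.59) and 11.9 and 65.0 (2.45). Mt3 is the form known from brain. Both genes lie on chromosome 8, starting at 94172664 and 94152607. Among the list members that handle glutamate, Slc1a2, the main glutamate transporter of astrocytes, had 0.721 and 3.95 (2.45) and Slc1a3, the transporter shared with radial glia, had 9.64 and 23.3 (1.27). Glul, which turns glutamate into glutamine, had 1.60 and 7.35 (2.20). Gja1, the connexin of astrocytic gap junctions, had 0.170 and 0.774 (2.19) and Hopx, a radial glia and astrocyte gene, 0.226 and 1.66 (2.88). The 3 list members that did not rise were Cd9 (-0.14), Sox9 (0.11) and Id3 (0.23).

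The list total per cell had 10th, 50th and 90th percentiles of 57.1, 84.2 and 146.6 at day 0 and 147.5, 521.5 and 959.5 at day 2. Thus 90.1% of day 2 cells lay above the 90th percentile of day 0. Apoe and Cst3 made up 61.0% of the rise in the mean total, and without both the share of day 2 cells above the 90th percentile was 80.1%, an alternative chosen after seeing the data. Slc1a2 had a median per cell of 0 at day 0 and 2.35 at day 2, with a 90th percentile of 10.2, whereas the median of Gja1 and Hopx was 0 in both libraries. Of the 26 genes, Hopx and Slc1a3 also stand in the radial glia list, and Gfap was not analysed here, so the list does not separate astrocytes from radial glia. Of the 13 radial glia genes compared, 4 rose and 1 fell (median 0.72). Msi1, an RNA-binding protein of stem cells, rose from 0.0987 to 0.513 (2.38). Tnc, a matrix protein of the stem cell niche, fell from 1.46 to 0.120 (-3.61).

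**Figure D3:**
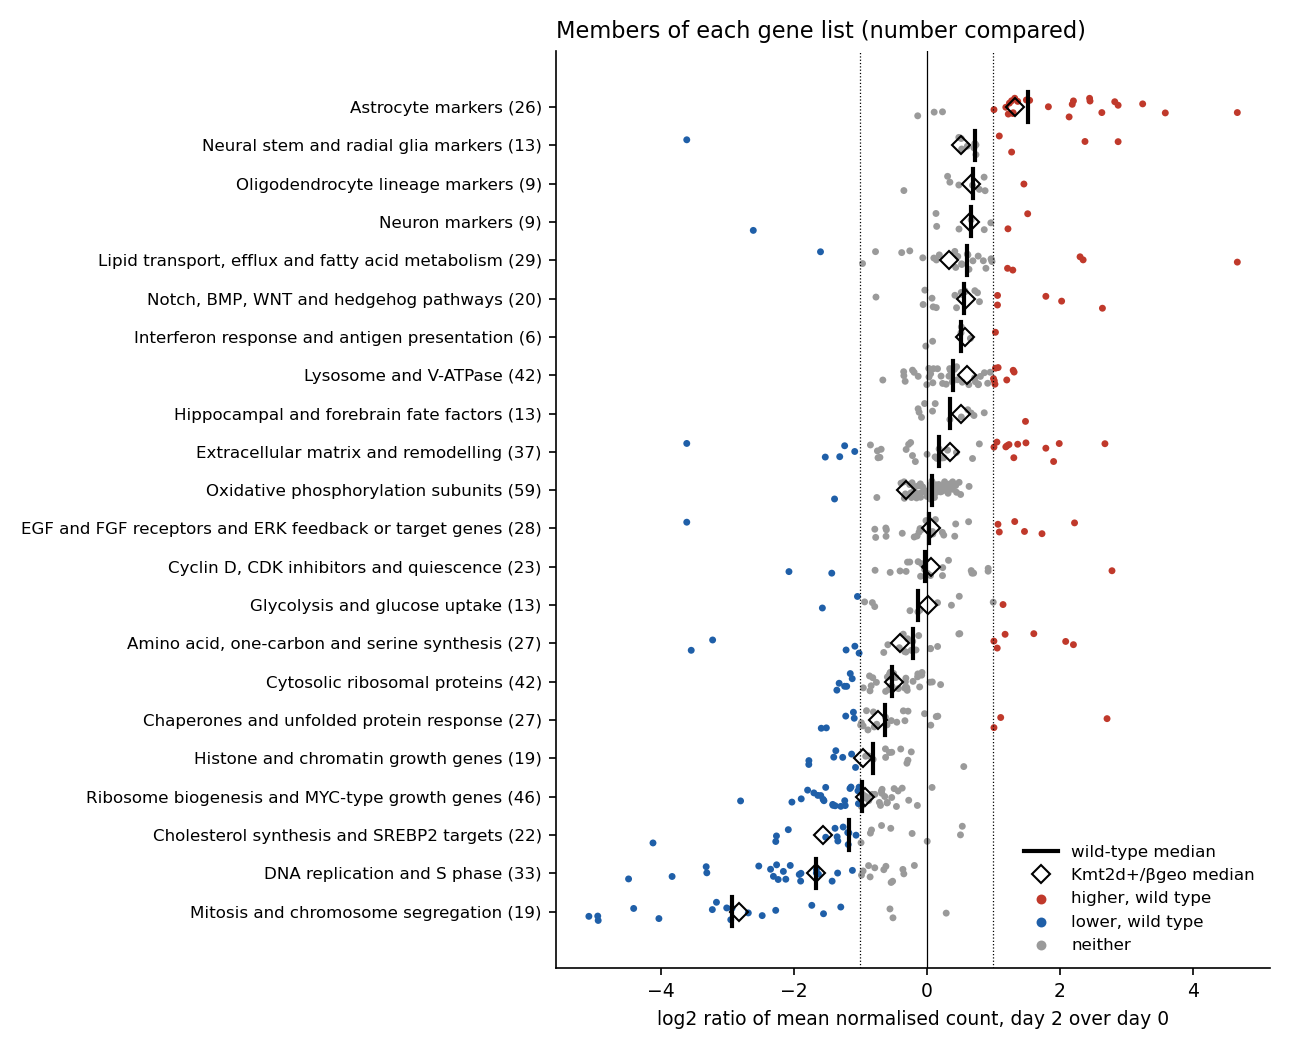
Log2 ratio of mean normalised count, day 2 over day 0, for each compared member of the lists with 5 or more members compared (points, wild type). Bars are wild-type medians, open diamonds are medians in the Kmt2d+/βgeo libraries, and dotted lines mark 1 and -1. Medians run from -2.93 for the mitotic list to 1.52 for astrocyte markers.

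The neuronal and oligodendroglial genes that could be compared moved less than the astrocyte markers. Of 43 neuron markers, 14 had a matrix row and 9 were compared. Of these 9, 8 had a ratio above 0 (median 0.67), 2 rose and 1 fell. Mapt, the microtubule protein tau, had 0.617 and 1.77 (1.52). Gap43, a protein of growing axons, fell from 0.367 to 0.0601 (-2.61). Map2 had 2.93 and 3.22 (0.14). Rbfox3, which encodes NeuN, lay under the minimum mean in both libraries, with 101 and 173 UMIs in all. Of 29 oligodendrocyte lineage genes, 10 had a matrix row and 9 were compared. Of these 9, 8 had a ratio above 0 (median 0.69), 0 fell and 1 rose. That gene is Sirt2, a deacetylase, which had 1.33 and 3.66 (1.46). Olig2, a factor of oligodendrocyte precursors, had 8.09 and 6.36 (-0.35), and its thinned share was 84.9% and 66.1%. The 10th, 50th and 90th percentiles of Olig2 were 1.93, 7.20 and 15.3 at day 0 and 0, 3.94 and 16.4 at day 2, so low cells became more common and the upper end did not shrink. Of 13 fate factors, 1 rose: Meis1, a homeobox factor, had 0.188 and 0.525 (1.48).

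The genes closest to the withdrawn mitogens did not fall together by day 2. Of 28 receptors, feedback regulators and targets of EGF, FGF and ERK signalling, 6 rose and 1 fell, and the median ratio was 0.04. The gene that fell was Tnc (-3.61), which also stands in the radial glia and matrix lists. Egfr, the receptor of EGF, had 1.23 and 2.63 (1.09), and Fgfr2 and Fgfr3, receptors of FGF2, had ratios of 1.47 and 1.32. Erbb4, a receptor of neuregulins, had 0.0872 and 0.406 (2.22). Lrig1, which lowers the amount of EGF receptor, had a mean of 0.391 at day 0 and a ratio of 1.73. Spry2, an ERK feedback inhibitor, had 0.589 and 1.24 (1.07). Egfr and Spry2 lost the call against low-cycle day 0 cells (0.95 and 0.97) and without scaling for depth (0.60 and 0.64). The ERK-induced factors Etv4 and Etv5 had 1.13 and 1.52 (0.43) and 3.60 and 2.35 (-0.61). Dusp6, Spry4 and Ccnd1 were not analysed here. At day 4 the wild-type means were 0.157 for Etv4 and 0.346 for Etv5, and at day 8 they were 0.0333 and 0.172. Egfr and Spry2 had 1.18 and 0.405 at day 8. Egfr, Spry2 and Etv4 thus had lower means at day 8 than at day 2, with 1 library for each. The antisense gene Egfros overlaps Egfr and had a ratio of 2.04. The span given for Fgfr2 (chromosome 7, 130162451 to 133123350) overlaps several other genes, among them Bub3, so their reads may not be separable.

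**Figure D4:**
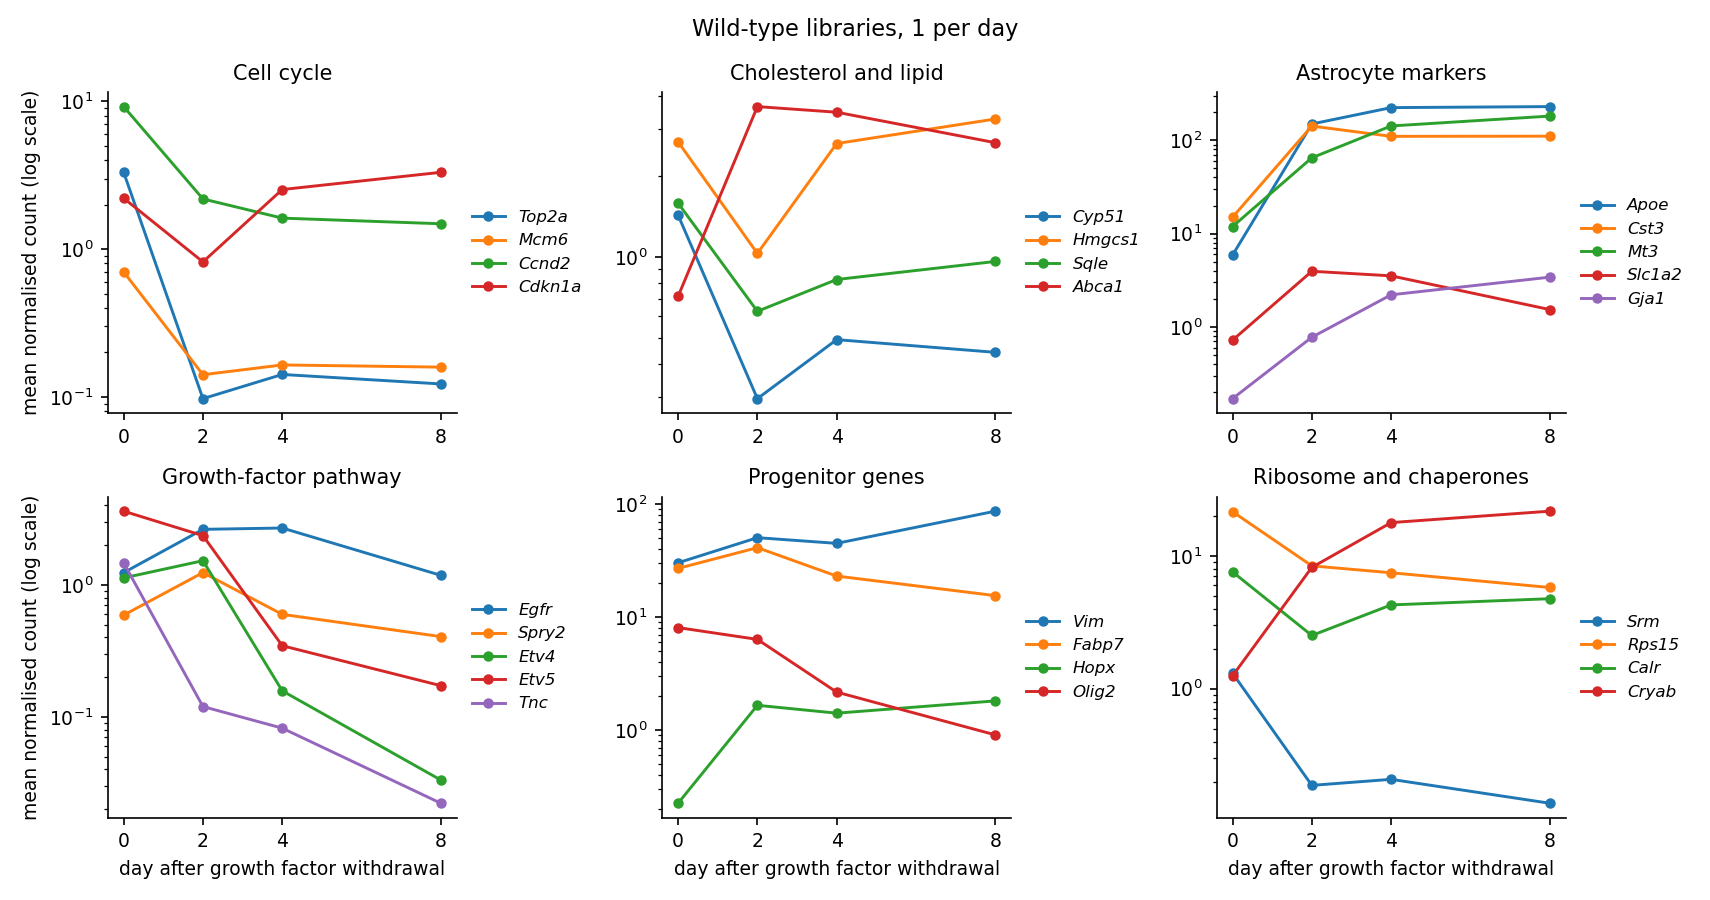
Mean normalised count (y axis, log scale) of 26 genes in the wild-type libraries of days 0, 2, 4 and 8, with 1 library per day and no error bar. Cell-cycle genes stay low after day 2, Etv4 and Etv5 fall between days 2 and 4, and Hmgcs1 and Cdkn1a are lowest at day 2.

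In signalling, matrix and lysosome lists more members rose than fell. Without scaling for depth the medians of the matrix and lysosome lists were below 0 (-0.26 and -0.04), as were those of the EGF, FGF and ERK list (-0.45), the fate factors (-0.08) and the oxidative phosphorylation list (-0.38). Of 20 Notch, BMP, WNT and hedgehog genes, 5 rose and 0 fell (median 0.55), among them Wnt7b, a WNT ligand (0.136 and 0.851, ratio 2.64), the receptors Notch2 (0.120 and 0.488, 2.03) and Bmpr1b (0.170 and 0.587, 1.79), and Lgr4 (1.06, or 0.93 after thinning). AU022754, a gene under the minimum mean, overlaps Wnt7b and had a ratio of 3.85. Of 42 lysosome and V-ATPase genes, 8 rose and 0 fell (median 0.40). The protease Ctsl had 2.79 and 6.94 (1.31), and Cd63, a membrane protein of late endosomes, had 8.09 and 19.9. Without scaling for depth, Ctsl (0.98), Cd63 (0.93), Lgr4 (0.61) and, of other lists, Slc1a3 (0.89), Pfkm (0.81) and Tap2 (0.73) lost the call. The list total per cell was 85.3 at the median of day 0 and 146.4 at that of day 2, with 82.5% of day 2 cells above the 90th percentile of day 0. Of 37 matrix and remodelling genes, 12 rose and 5 fell (median 0.18). Ccn1 (0.0403 and 0.258, 2.68), Itga2 (1.99) and Thbs3 (1.91) had the highest ratios, and Tnc the lowest.

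Of 59 oxidative phosphorylation subunits, 0 rose and 1 fell (median 0.07), which was Ndufs5 (1.70 and 0.649, -1.39). Of 13 glycolysis genes, Ldha (9.68 and 3.25, -1.57) and Pkm (15.4 and 7.45, -1.04) fell, and Pfkm rose (0.519 and 1.15, 1.15), though with 0.93 against low-cycle day 0 cells it lost the call. These encode lactate dehydrogenase A, pyruvate kinase and muscle-type phosphofructokinase. Among 27 amino acid, one-carbon and serine genes, 6 rose and 5 fell (median -0.21, or 0.08 with a minimum mean of 0.5). The cationic amino acid transporter Slc7a1 had 0.242 and 0.0207 (-3.55), and the mitochondrial folate enzyme Mthfd2 had 0.289 and 0.0309 (-3.22). Against low-cycle day 0 cells Mthfd2 had -1.72, and within day 0 its log2 ratio of low-cycle over the other cells was -2.22. Slc7a11, which imports cystine, had 0.0485 and 0.206 (2.09). Of 6 interferon genes compared, 1 rose: Tap2, a peptide transporter, had 0.0722 and 0.148 (1.03), a call lost after thinning (0.98) and against low-cycle day 0 cells (0.80). The dissociation and immediate early list had 2 genes compared and 0 called.

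The highest ratio among the 7451 genes compared was that of Ly6h, a membrane-anchored protein of the Ly6 family. Its mean was 0.0073 at day 0, from 40 UMIs, and 0.207 at day 2, from 777 UMIs, a ratio of 4.82 with a pooled interval of 4.54 to 5.50. Ackr3, a scavenging receptor for the chemokine CXCL12, had 0.0732 and 1.26 (4.10). Its thinned share was 2.64% and 30.7%. Cav1, the coat protein of caveolae, had 0.0492 and 0.837 (4.09), with shares of 1.69% and 20.4%. Ahnak had 0.00756 and 0.124 (4.03), and Gmpr, which recycles guanine nucleotides, had 0.430 and 4.30 (3.32). Gabrb1, a subunit of GABA-A receptors, had 0.0481 and 0.451 (3.23), and Shisa9, which binds AMPA receptors, had 3.15. The rest of the 15 highest among genes compared were Apoe, Mt2, Cst3, Phyhd1 (4.00), Gm28035 (3.61), 1190005I06Rik (3.40), Tmem132b (3.29) and Nkain4 (3.13). Phyhd1 and Gm28035 overlap on chromosome 2, so their reads may not be separable. Atxn1 (2.28) overlaps Gmpr, and Gabra4 (2.45) overlaps Gabrb1. Akap12, a kinase scaffold outside the lists, fell from 2.45 to 0.220 (-3.48). Among long intergenic RNAs, 13 of 37 compared rose and 3 fell.

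The 8 largest rises in mean were those of Apoe, Cst3, Mt3, Ptn, Vim, Gpm6b, Itm2b and Mt2, of which Ptn and Vim did not reach a log2 ratio of 1 (0.76 and 0.74). Ptn, a growth factor, had 40.9 and 69.3, and Gpm6b, a membrane protein of glia and neurons, had 8.01 and 25.8. The 8 largest falls, among them Rps2 (77.6 and 42.6), Rps16 (53.7 and 29.6) and the chaperone gene Hsp90ab1 (66.1 and 37.9), belonged to translation and protein folding. None of these 8 reached a ratio of -1.

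The same contrast in the Kmt2d+/βgeo libraries gave 802 higher genes (10.7% of 7502) and 506 lower genes (6.74%). Of the wild-type genes that rose, 577 were compared there, of which 476 also rose and 0 fell. For the wild-type genes that fell, the numbers were 409, 324 and 0. The overlap is 82.5% of the wild-type rises and 65.8% of the 723 Kmt2d+/βgeo rises compared in wild type, and 79.2% and 66.3% for the falls. Across 7303 genes compared in both, which are not independent replicates, Pearson's r of the 2 ratios was 0.92. Genotype, culture and library cannot be told apart in any difference. Apoe had 3.89 there, Top2a -5.02, Ccnd2 -2.26 and Hopx 1.87. Wild-type calls that did not pass there included Slc1a3 (0.82), Spry2 (0.33), Sqle (-0.56) and Rpl13a (-0.82). Of 25 astrocyte markers compared there, 18 rose and 0 fell. The list medians were 1.32 for astrocyte markers, -2.83 for mitosis and -1.57 for cholesterol. A ratio that was not shared was that of Gm49980, a long intergenic RNA, at -2.90 in wild type (0.384 and 0.0515) and 0.78 in Kmt2d+/βgeo (0.0910 and 0.156).

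**Figure D5:**
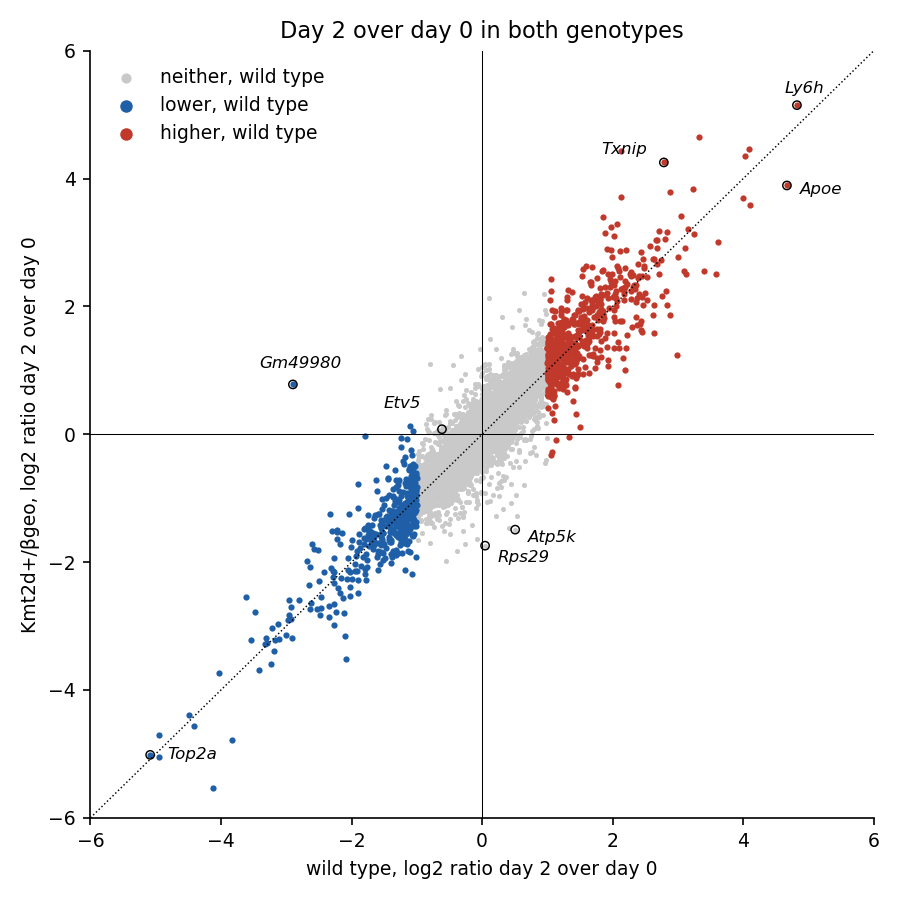
Log2 ratio of mean normalised count, day 2 over day 0, in wild type (x axis) against Kmt2d+/βgeo (y axis) for the 7303 genes compared in both. Colours give the wild-type call and the dotted line marks equal ratios. No wild-type gene that rose had fallen in the other genotype, and Gm49980, Rps29 and Atp5k lie far from the line.

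The genes called at day 2 were also looked at in the later wild-type libraries. Of the 602 genes that rose by day 2, 447 were still at a log2 ratio of at least 1 over day 0 in the day 4 library and 434 in the day 8 library. Of the 414 that fell, 264 and 285 were still at -1 or less. Apoe had means of 224 and 230 at days 4 and 8, Mt3 143 and 182, and Gja1 2.21 and 3.41. Slc1a2 had 3.53 and 1.53 and Glul 4.90 and 1.49, so these 2 were lower at day 8 than at day 2. Cav1 and Ackr3 had 0.108 and 0.359 at day 8, against 0.837 and 1.26 at day 2. Top2a stayed at 0.142 and 0.122. All of these comparisons share the day 0 library against which the genes were called. The share of all genes compared that lay past the threshold at days 4 and 8 was not set beside these counts.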

How the data were processed

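Droplet 3′ single-cell RNA-seq was measured in 8 libraries of mouse hippocampal progenitors, of which the wild-type libraries of days 0 and 2 were compared here. Per the labels and the study's methods, the authors counted UMIs with alevin of Salmon 1.3.0 on GRCm38, took spliced counts, removed poor cells and doublet outliers, and scaled each cell by its total. The authors' notes also list Seurat 3.2.2. The deposited matrix holds the authors' log2 values of 9140 genes. The deposited cell table holds the total UMIs of each cell as an estimated count by the authors. Sample assignment of cells came from that table, and 0 columns of other samples were met.

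Values were turned back to normalised counts (the antilog to base 2, less 1). Estimated UMIs per cell were the normalised counts divided by the commonest value of the cell, which gave whole numbers, to a tolerance of 0.01, for 86.8% of the values above 0. They were rounded for thinning (3000 UMIs per cell, 0 cells left out) and pooled sums. Intervals are exact conditional (ratios of pooled counts, which weight deep cells more than the mean does) and exact Clopper-Pearson (shares), at 95%. Python 3.11.15, numpy 2.4.6, pandas 2.3.3, scipy 1.17.1 and matplotlib 3.10.9 were used. The ratios and intervals were checked on simulated counts.

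The members and the 26 gene lists were chosen with earlier results of these data known. Of 119 named genes, the rule took the 15 highest and 15 lowest ratios, up to 4 called genes per list, the 8 largest rises and falls in mean, and a fixed list. 9330179D12Rik, Anln, Arl6ip1, Atp5k, Atxn1, AU022754, Bub3, Cd9, Ckap5, Egfros, Fgfr3, Gabra4, Gins4, Gm49980, Npc1, Rfc3, Rpl38, Rps29, Scap, Tacc3, Tm7sf2 and Ube2s fall outside this rule and were chosen after their values were seen. Alternatives changed the minimum mean, scale, depth, scaling, threshold and cells used. Gene symbols and coordinates came from the deposited gene table, and promoters from RefSeq. Symbols such as Id1, Clu, Olig1 and Cdkn1c had no row and were not analysed here, and a few members of the lists are not reported here.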

Additional observations from a re-analysis of the deposited data

Results flagged for a closer look

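Of the 7303 genes compared in both genotypes, 350 had opposite directions with counting intervals of both pooled ratios that left out 0, and the ratios of 104 genes differed by at least 1. Those of the 350 that the naming rule took are given here. With 1 library per genotype and day these differences were not tested. Eef1a1, a translation elongation factor, had a log2 ratio of day 2 over day 0 of -0.22 in wild type (means 145 and 125) and 0.36 in Kmt2d+/βgeo (99.9 and 128). Etv5 had -0.61 in wild type (3.60 and 2.35) and 0.08 in Kmt2d+/βgeo (2.12 and 2.24). Id3, a target of BMP signalling, had 0.23 (2.24 and 2.63) and -0.19 (3.22 and 2.81). None of these 6 ratios passed the threshold of 1.

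The list of oxidative phosphorylation subunits had a median log2 ratio of 0.0740 in wild type and -0.32 in Kmt2d+/βgeo, where 7 of 59 genes fell, against 1 in wild type. Atp5k had 0.51 in wild type and -1.49 in Kmt2d+/βgeo, and the ribosomal protein genes Rps29 (0.05 and -1.74) and Rpl38 (-0.08 and -1.64) stood apart in the same way.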

How the results depend on the processing

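No paired analysis was possible within wild type, where each day is 1 library. Against 602 genes higher and 414 lower, a minimum mean of 0.5 gave 288 and 217, a threshold of 1.5 gave 251 and 155, and the difference of mean log2 values, which compresses low genes, gave 39 and 32. With day 0 restricted to cells low in cell-cycle counts there were 462 higher and 276 lower genes, of which 439 and 235 had been called over all cells. The absence of a minimum mean, with at least 20 UMIs required, gave 896 and 469. Without scaling for depth, an alternative chosen after seeing the data that moved the median ratio to -0.47 and single ratios by -0.58 to -0.37 (5th to 95th percentile), 292 genes were higher and 1397 lower, so higher genes were 17.3% of calls in place of 59.3%. Thinning, ratios of pooled counts, centring on the median ratio and leaving out the 5% deepest and shallowest cells kept both counts within 1.5 times. List medians near 0 also changed sign: glycolysis was at 0.03 with no minimum mean, cyclin D and quiescence genes at 0.01 with pooled counts, and the EGF, FGF and ERK list at -0.05 with a minimum mean of 0.5 and -0.01 with mean log2 values. Against low-cycle day 0 cells the median of the 10 mitotic members that still met the minimum mean was 0.12, and Smc2 and Smc4 had 0.16 and 0.12. No other called named gene changed sign under any of the 9 alternatives run for them. Calls were lost, however: 76 of the 89 called named genes with a value kept theirs against low-cycle day 0 cells, 88 of 99 without scaling for depth, 93 of 95 after thinning and 27 of 99 with mean log2 values. Some low means rest on few UMIs, such as Ahnak (35) and Ly6h (40) at day 0 and Dtl (42) and Ect2 (70) at day 2.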
